A study of Rattus norvegicus with 18 samples.

Results

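The genes described here encode 9 subunits of 3 kinds of neuronal potassium channel that ethanol is known to act on. They are the BK genes Kcnma1, Kcnmb2 and Kcnmb4, the SK genes Kcnn1, Kcnn2 and Kcnn3, and the GIRK genes Kcnj3, Kcnj6 and Kcnj9. They were chosen by name from 38445 genes in the count files, and all 9 were among the 17853 genes whose level passed a minimum and were tested. RNA was sequenced from the dorsal hippocampus of 18 adult male wild-type Sprague Dawley rats, which were fed a Lieber-DeCarli liquid diet. The 6 control rats received the diet without ethanol. The 6 chronic ethanol rats received it with 9% v/v ethanol and were taken without withdrawal, and the 6 withdrawal rats were returned to control diet for 24 h after ethanol. Ethanol was introduced over 7 days, after which the full diet was given for 15 days before withdrawal and for 16 days in the ethanol rats. The samples are whole pieces of tissue, so fewer cells of a type and less RNA per cell cannot be told apart.

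All of these channels let potassium leave the neuron and so lower its excitability, but they open on different signals. BK channels open with membrane depolarization together with a rise in calcium, and they shorten the action potential. SK channels sense calcium alone, through calmodulin bound to the channel, and carry the slower hyperpolarization after a spike that also limits synaptic responses in hippocampal pyramidal cells. GIRK channels open when an inhibitory receptor, such as the GABA-B, adenosine or serotonin receptor, frees G protein βγ subunits. Ethanol acts directly on BK and GIRK channels, and the SK channels of the hippocampus have been studied in ethanol withdrawal.

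Total counts on genes ranged from 30873228 to 42679748 per rat, and levels are given as CPM, counts relative to the library total multiplied by its TMM factor (0.9675 to 1.031), with mean ± SD. The rats differed in the tissue they contained. The summed level of 6 thalamus markers was 1325 CPM in ethanol rat 1, 799 CPM in ethanol rat 4 and 703 CPM in control rat 6, against 217 to 522 CPM in the other rats. These markers did not always move together. Withdrawal rat 5, with a sum of 345 CPM, had 141 CPM of Tcf7l2 and 36.4 CPM of Prkcd, against control means of 60.4 and 102 CPM. The summed CA1 and dentate gyrus markers were lowest in withdrawal rat 5 (412 CPM) and ethanol rat 1 (485 CPM), against 626 to 947 CPM elsewhere. The summed choroid plexus markers were 26.9 and 27.7 CPM in withdrawal rats 4 and 5 and at least 1075 CPM in all other rats. The library indexes fell into 3 sets, and no control rat shared its set with a rat of another group, so that index set and control diet cannot be told apart.

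Per kilobase of annotated exon, the channel transcripts spanned a wide range of levels. The annotated lengths ran from 1012 bases for Kcnmb4 to 16383 bases for Kcnj6, and the order rests on them. In CPM, without regard to length, Kcnj6 had the highest mean over the 18 rats, 347 CPM. Kcnmb4 had 41.2 CPM, less than Kcnma1 (85.5 CPM), Kcnj9 (80.3 CPM) and Kcnj3 (64.6 CPM). The BK β4 gene Kcnmb4 had the highest mean over the 18 rats, 40.8 ± 6.13 CPM per kb, and the BK β2 gene Kcnmb2 the lowest, 0.520 ± 0.0769 CPM per kb. The GIRK genes followed Kcnmb4, with Kcnj3 at 35.3 ± 5.96, Kcnj9 at 34.8 ± 4.71 and Kcnj6 at 21.2 ± 4.08 CPM per kb. The BK α gene Kcnma1 had 15.7 ± 2.06 CPM per kb. The SK genes were lower, with Kcnn2 at 6.61 ± 1.00, Kcnn1 at 2.94 ± 0.398 and Kcnn3 at 2.37 ± 0.687 CPM per kb. Kcnj3 and Kcnj9 could not be ranked, since Kcnj3 was the higher of the pair in 9 of 18 rats. Kcnmb4 exceeded Kcnj3 in 13 rats, and Kcnj6 exceeded Kcnma1 and Kcnn1 exceeded Kcnn3 in 15 rats each. The other 4 steps of the order held in all 18 rats.

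**Figure D1:**
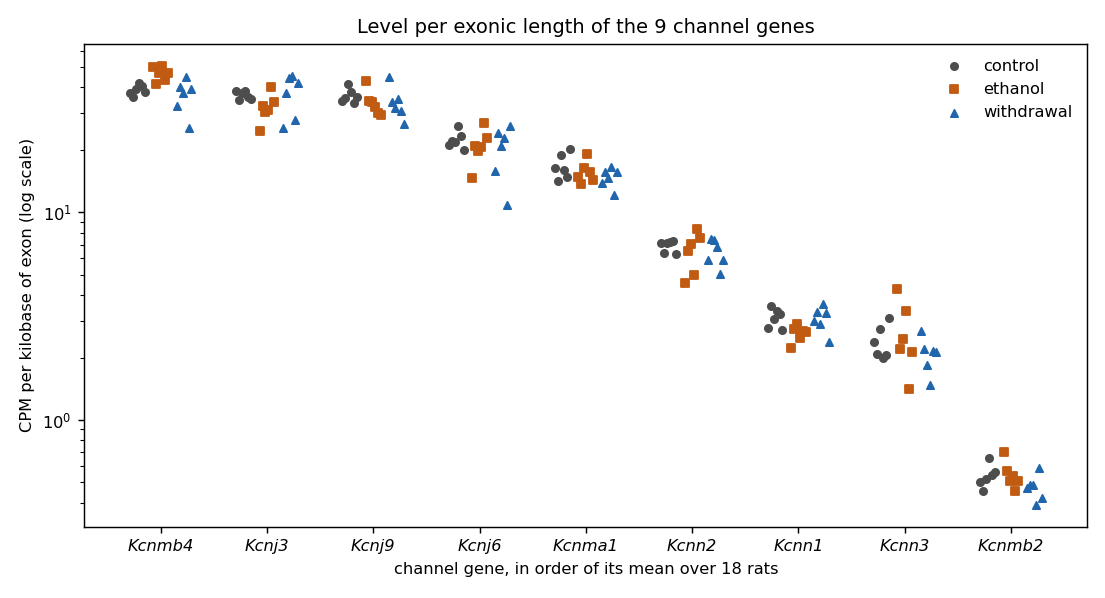
Level of each channel gene in CPM per kilobase of exon (log scale), with 1 point per rat and a symbol per group, ordered by the mean over 18 rats. The order runs from Kcnmb4 at 40.8 to Kcnmb2 at 0.520 CPM per kb, and the 3 groups of a gene lie over each other far more than the genes do.

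The BK channel is a tetramer of α subunits with β subunits that set how it gates. Kcnma1, the pore-forming α gene, spans 704.6 kb of chromosome 15 (344204 to 1048849, plus strand, Rnor_6.0). Kcnmb4, whose β4 subunit is the main neuronal β subunit and slows the gating of the channel, lies on chromosome 7 (59461808 to 59514759, minus strand). Kcnmb2, whose β2 subunit gives the channel inactivation, lies on chromosome 2 (118276298 to 118585321, plus strand).

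Kcnmb4 and Kcnmb2 were the genes at the 2 ends of the order per kilobase, and the 250 bases before their start sites are shown because these also differ in base composition. The sequences are from RefSeq, assembly GRCr8, where a promoter entry was matched for 7 of the 9 genes and was not matched for Kcnn1 and Kcnj3. Capitals mark GGGCGG or its reverse complement CCGCCC, the GC box.
Kcnmb4, chr7:54005102-54005351, minus strand: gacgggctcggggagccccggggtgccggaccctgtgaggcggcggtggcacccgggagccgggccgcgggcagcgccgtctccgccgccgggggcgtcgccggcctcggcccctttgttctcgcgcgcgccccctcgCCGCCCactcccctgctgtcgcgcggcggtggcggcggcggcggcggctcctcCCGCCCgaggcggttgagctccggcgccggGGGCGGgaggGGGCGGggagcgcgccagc
Kcnmb2, chr2:116599049-116599298, plus strand: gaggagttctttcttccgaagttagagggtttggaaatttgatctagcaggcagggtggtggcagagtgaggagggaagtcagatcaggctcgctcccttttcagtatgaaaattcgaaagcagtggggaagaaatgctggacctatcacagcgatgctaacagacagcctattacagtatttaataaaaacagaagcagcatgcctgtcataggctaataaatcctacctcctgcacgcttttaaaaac
The Kcnmb4 window had 84.4% G and C, 44 CpG pairs and 4 GC boxes, and the Kcnmb2 window had 44.8% G and C, 5 CpG pairs and no GC box. Over 33469 rat promoter windows of the same length the median was 51.2% G and C with 5 CpG pairs, and 30.5% of the windows held a GC box on either strand. Among the 7 channel windows, 3 held one, namely those of Kcnmb4, Kcnma1 with 5 and Kcnj6 with 1. The deposited data hold no measurement at these promoters, and a match is a description of letters only.

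Kcnmb4 had the lowest q of the 9 genes for ethanol against control and for withdrawal against ethanol. In control rats it ranged from 36.6 to 42.4 CPM with a median of 39.0 CPM. In ethanol rats it ranged from 42.1 to 51.4 CPM with a median of 47.4 CPM. In withdrawal rats it ranged from 25.9 to 45.6 CPM with a median of 39.0 CPM. Thus 5 of 6 ethanol rats lay above every control rat, 5 of 6 withdrawal rats lay below every ethanol rat, and withdrawal and control rats overlapped.

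The mean of Kcnmb4 was 39.4 ± 2.18 CPM in control, 47.2 ± 3.63 CPM in ethanol and 37.2 ± 6.85 CPM in withdrawal rats (n = 6 each). Between ethanol and control the log2 fold change fitted by limma-voom was 0.20 (SE 0.0762, fold 1.15), with q = 0.282 over all genes. Between withdrawal and ethanol it was -0.26 (SE 0.0802, fold 0.835), with q = 0.119 by limma-voom. Between withdrawal and control it was -0.06 (SE 0.0724), with q = 0.699 by limma-voom. None of these passed q < 0.1, and the F test across the groups gave q = 0.138 by limma-voom. Without any model, the exact permutation test on log2 CPM (two-sided) gave p = 0.00433 for ethanol against control, 0.00649 for withdrawal against ethanol and 0.461 for withdrawal against control, and the smallest p that 6 against 6 rats allow is 0.00216.

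The call for Kcnmb4 turned on single rats and on the model. When ethanol rat 1 and withdrawal rat 5, the rats with the lowest CA1 and dentate gyrus markers, were left out, limma-voom gave a log2 fold change of 0.22 with q = 0.0308 for ethanol against control and of -0.20 with q = 0.0507 for withdrawal against ethanol, in models that called 1.57% and 3.77% of all genes. The q of ethanol against control was also below 0.1 when ethanol rat 5 or withdrawal rat 5 was left out, and that of withdrawal against ethanol when ethanol rat 5, withdrawal rat 4 or withdrawal rat 5 was left out. Over the 18 models that each left out a rat, q ranged from 0.0525 to 0.480 and from 0.0195 to 0.460, respectively. Without control rat 6 and ethanol rats 1 and 4, Kcnmb4 no longer had an exact permutation p under 0.05 for withdrawal against ethanol, where 9.7% of all genes did. In that model limma-voom called it, with 3.3% of all genes. DESeq2, which called 6.59% of all genes, gave q = 0.0471, and the quasi-likelihood test of edgeR q = 0.115 for withdrawal against ethanol. Withdrawal rats 1 and 2, which had the same index set as the ethanol rats, had 33.1 and 40.5 CPM, both below the lowest ethanol rat, and with the index set as a term in place of the surrogate variables the log2 fold change was -0.35 with q = 0.752, in a model that called 0 of 17693 genes.

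The level of Kcnmb4 was lower in rats with a higher summed level of interneuron markers. Over the 18 rats its correlation with the summed level of 7 interneuron markers was r = -0.81 (permutation p = 0.00014, q = 0.00205 over 117 gene and marker list pairs) and rho = -0.655 (permutation p = 0.00421, q = 0.0308). The interneuron sum was 423 to 592 CPM in control, 390 to 625.1 CPM in ethanol and 463 to 836 CPM in withdrawal rats. The highest sums were those of withdrawal rats 5 and 1, which also had the lowest Kcnmb4. Not every marker was high in them: Gad1 was 413 and 340 CPM, but Lhx6 was 5.35 and 7.55 CPM, against a control mean of 8.42 CPM. Without these 2 rats r was -0.547, and within the groups it was -0.72 in control, -0.65 in ethanol and -0.88 in withdrawal rats. With the summed CA3 markers, of which 5 of 5 were tested, r was 0.767 (permutation p = 0.00069, q = 0.00538) and rho 0.531 (permutation p = 0.0254, q = 0.0998), and r was 0.302 without withdrawal rats 5 and 1 and 0.82, 0.22 and 0.90 within control, ethanol and withdrawal rats. The CA3 sum was 467 to 620 CPM in control, 468 to 656 CPM in ethanol and 285 to 582 CPM in withdrawal rats. The part of tissue composition in the Kcnmb4 differences was not tested.

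Kcnma1, the α gene, was close between groups, with 77.4 to 110 CPM in control, 74.5 to 104 CPM in ethanol and 65.8 to 89.6 CPM in withdrawal rats. The means were 91.2 ± 12.9, 85.2 ± 10.6 and 80.2 ± 8.68 CPM (n = 6 each). By limma-voom, the log2 fold change was -0.14 for ethanol against control (95% interval -0.36 to 0.07) and -0.16 for withdrawal against control (-0.36 to 0.05), with q of 0.601 and 0.385. Without control rat 6, the highest rat, they were -0.063 and -0.094. All 6 withdrawal rats were below the control mean, and 2 of them were below every control rat.

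The ratio of the Kcnmb4 to the Kcnma1 transcript, per kilobase of exon, was 2.36 ± 0.345 in control, 2.99 ± 0.274 in ethanol and 2.47 ± 0.210 in withdrawal rats (n = 6 each). It ranged from 1.86 to 2.77 in control, from 2.65 to 3.35 in ethanol and from 2.11 to 2.73 in withdrawal rats. As for Kcnmb4 itself, 5 of 6 ethanol rats were above every control rat and 5 of 6 withdrawal rats were below every ethanol rat. The ratio is given as a description, since it was formed after the level of Kcnmb4 was known. Its absolute size rests on the annotated lengths of both genes.

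**Figure D2:**
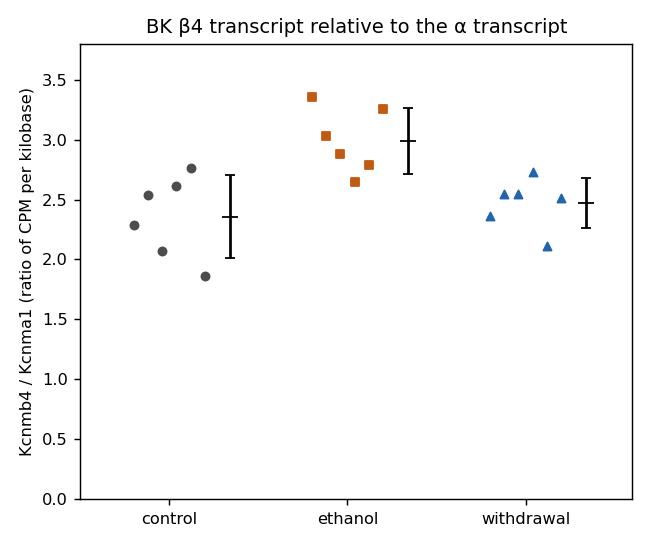
Ratio of Kcnmb4 to Kcnma1, each in CPM per kilobase of exon, with 1 point per rat and the mean ± SD at the right of each group. The ethanol rats lie between 2.65 and 3.35, and the control and withdrawal rats lie between 1.86 and 2.77.

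Kcnmb2 was counted with only 84 to 149 reads per rat. It ranged from 2.75 to 3.95 CPM in control, from 2.75 to 4.23 CPM in ethanol and from 2.35 to 3.52 CPM in withdrawal rats, and the groups overlapped. Its log2 fold change was -0.19 for withdrawal against control (95% interval -0.42 to 0.03, limma-voom q = 0.323). For ethanol against control it was -0.07 with surrogate variables, which are sources of variation estimated from the data, and 0.017 without, so that no direction can be given (limma-voom q = 0.839 with them). It was -0.012 without control rat 4 and -0.13 without ethanol rat 2.

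The SK channel is built from the products of Kcnn1 (SK1), Kcnn2 (SK2) and Kcnn3 (SK3), all of which bind calmodulin. Kcnn1 lies on chromosome 16 (20325270 to 20349163, plus strand), Kcnn2 on chromosome 18 (39331894 to 39479574, plus strand) and Kcnn3 on chromosome 2 (188837280 to 188991794, plus strand), all in Rnor_6.0. Kcnn2, the SK gene best known from CA1 pyramidal cells, made up 55.6% ± 2.56 of the summed SK transcripts per kilobase in control, 54.8% ± 9.62 in ethanol and 55.3% ± 4.70 in withdrawal rats (n = 6 each). The ranges overlapped, and the ethanol rats spread most, from 41.2% in ethanol rat 1 to 67.1% in ethanol rat 5.

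Kcnn1 ranged from 17.6 to 23.2 CPM in control rats (median 20.7), from 14.5 to 18.9 CPM in ethanol rats (median 17.5) and from 15.5 to 23.6 CPM in withdrawal rats (median 20.5). All 6 ethanol rats were below the control mean and 4 were below every control rat, while 5 of 6 withdrawal rats were above every ethanol rat. For ethanol against control the log2 fold change was -0.15 (SE 0.0682), with q = 0.389 by limma-voom, and the exact permutation test gave p = 0.0152. For withdrawal against ethanol it was 0.06 (SE 0.0719), with q = 0.698 by limma-voom and an exact permutation p of 0.0563. The latter value was 0.23 without surrogate variables (q = 0.226) and 0.00022 to 0.14 over the models that each left out a rat. None of these passed q < 0.1. Ethanol rat 1, with the most thalamus marker RNA, had the lowest Kcnn1, and the correlation of Kcnn1 with the thalamus sum was r = -0.737 (permutation p = 0.00023, q = 0.00299; rho = -0.598, permutation p = 0.0105, q = 0.0533). It was -0.547 without ethanol rats 1 and 4 and between -0.77 and -0.88 within the groups, and its part in the Kcnn1 values was not tested.

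Kcnn2 ranged from 29.8 to 34.3 CPM in control, from 21.4 to 39.3 CPM in ethanol and from 23.6 to 34.8 CPM in withdrawal rats. The ethanol rats enclosed both other groups. Its log2 fold change was 0.03 for ethanol against control (95% interval -0.13 to 0.19) but -0.13 without surrogate variables, and -0.09 for withdrawal against control (-0.24 to 0.05), with limma-voom q of 0.908 and 0.480. The latter was -0.060 without control rat 6, -0.15 without withdrawal rat 2 and -0.026 without withdrawal rat 6. The lowest levels of Kcnn2 were those of ethanol rats 1 and 4 and withdrawal rat 5.

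Kcnn3 varied most of all 9 genes, with a coefficient of variation of 29.01% over the 18 rats against 13.1% to 19.3% for the others. It ranged from 11.7 to 18.2 CPM in control rats (median 13.0), from 8.24 to 25.1 CPM in ethanol rats (median 13.6) and from 8.63 to 15.7 CPM in withdrawal rats (median 12.5). The 3 highest values were those of ethanol rats 1 and 4 and control rat 6, which were also the 3 rats with the highest thalamus sum. For ethanol against control the fitted log2 fold change was -0.21 (SE 0.0865, limma-voom q = 0.331), whereas it was 0.070 without surrogate variables, so that the sign depended on the model. For withdrawal against control it was -0.20 (SE 0.0795, limma-voom q = 0.186), and 5 of 6 withdrawal rats were below the control mean. The exact permutation tests gave p = 0.781 and 0.219. The fitted values were -0.13 without ethanol rat 5 for the first and -0.099 without withdrawal rat 6 for the second.

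The GIRK channel is usually a mixed tetramer. The product of Kcnj3 (GIRK1) needs a partner to reach the cell surface, that of Kcnj6 (GIRK2) can form channels alone, and that of Kcnj9 (GIRK3) carries a signal for sorting to endosomes. Kcnj3 lies on chromosome 3 (41019898 to 41181070, plus strand), Kcnj6 on chromosome 11 (35011007 to 35262362, minus strand) and Kcnj9 on chromosome 13 (90703046 to 90710148, minus strand), all in Rnor_6.0. Exons of Kcnj9 share 217 bases, 9.4% of its exonic length, with Igsf8 on the opposite strand, and exons of Kcnj3 share 55 bases with an opposite-strand locus. Reads were counted by strand.

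Kcnj3 ranged from 63.5 to 70.2 CPM in control rats (median 67.5), from 44.9 to 73.2 CPM in ethanol rats (median 58.2) and from 46.4 to 83.2 CPM in withdrawal rats (median 72.8). Of the ethanol rats 5 were below every control rat and 1 was above, and the withdrawal rats lay on both sides of the control rats. Ethanol against control gave a log2 fold change of -0.13 (SE 0.0861), with q = 0.582 by limma-voom and an exact permutation p of 0.0498, and -0.078 without control rat 6. For withdrawal against control it was 0.03 (95% interval -0.14 to 0.20, limma-voom q = 0.885), and -0.016 without surrogate variables.

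Kcnj6 had the most counts of the 9 genes, 6592 to 17563 per rat. It ranged from 327 to 430 CPM in control rats (median 360), from 240 to 442 CPM in ethanol rats (median 341) and from 177 to 425 CPM in withdrawal rats (median 358). The low values were those of withdrawal rat 5 (177 CPM), ethanol rat 1 (240 CPM) and withdrawal rat 1 (260 CPM), and the remaining rats of the 3 groups overlapped. Its log2 fold change was -0.03 for ethanol against control (95% interval -0.17 to 0.11) and -0.11 for withdrawal against control (-0.24 to 0.02), with limma-voom q of 0.885 and 0.35. The first had the opposite sign, 0.057, when only those 2 groups were fitted, and the second was -0.071 without control rat 6 and -0.065 without withdrawal rat 5.

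Kcnj9 ranged from 77.3 to 96.1 CPM in control rats, from 68.2 to 99.1 CPM in ethanol rats and from 61.2 to 103 CPM in withdrawal rats. In each of the ethanol and withdrawal groups 5 of 6 rats were below the control mean, and rat 1 was far above it. Its log2 fold change was -0.12 for ethanol against control (95% interval -0.35 to 0.10) and -0.15 for withdrawal against control (-0.36 to 0.06), with limma-voom q of 0.675 and 0.424. The latter was -0.25 without withdrawal rat 1, -0.099 without withdrawal rat 5 and -0.025 without withdrawal rat 6. The shares of the 3 GIRK transcripts, per kilobase, were 38.4% ± 1.31 for Kcnj3, 23.4% ± 1.69 for Kcnj6 and 38.2% ± 1.96 for Kcnj9 in control rats. The spread was wider in ethanol and withdrawal rats, and ethanol rat 1 and withdrawal rat 1 had the highest share of Kcnj9, 52.3% and 52.0%.

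**Figure D3:**
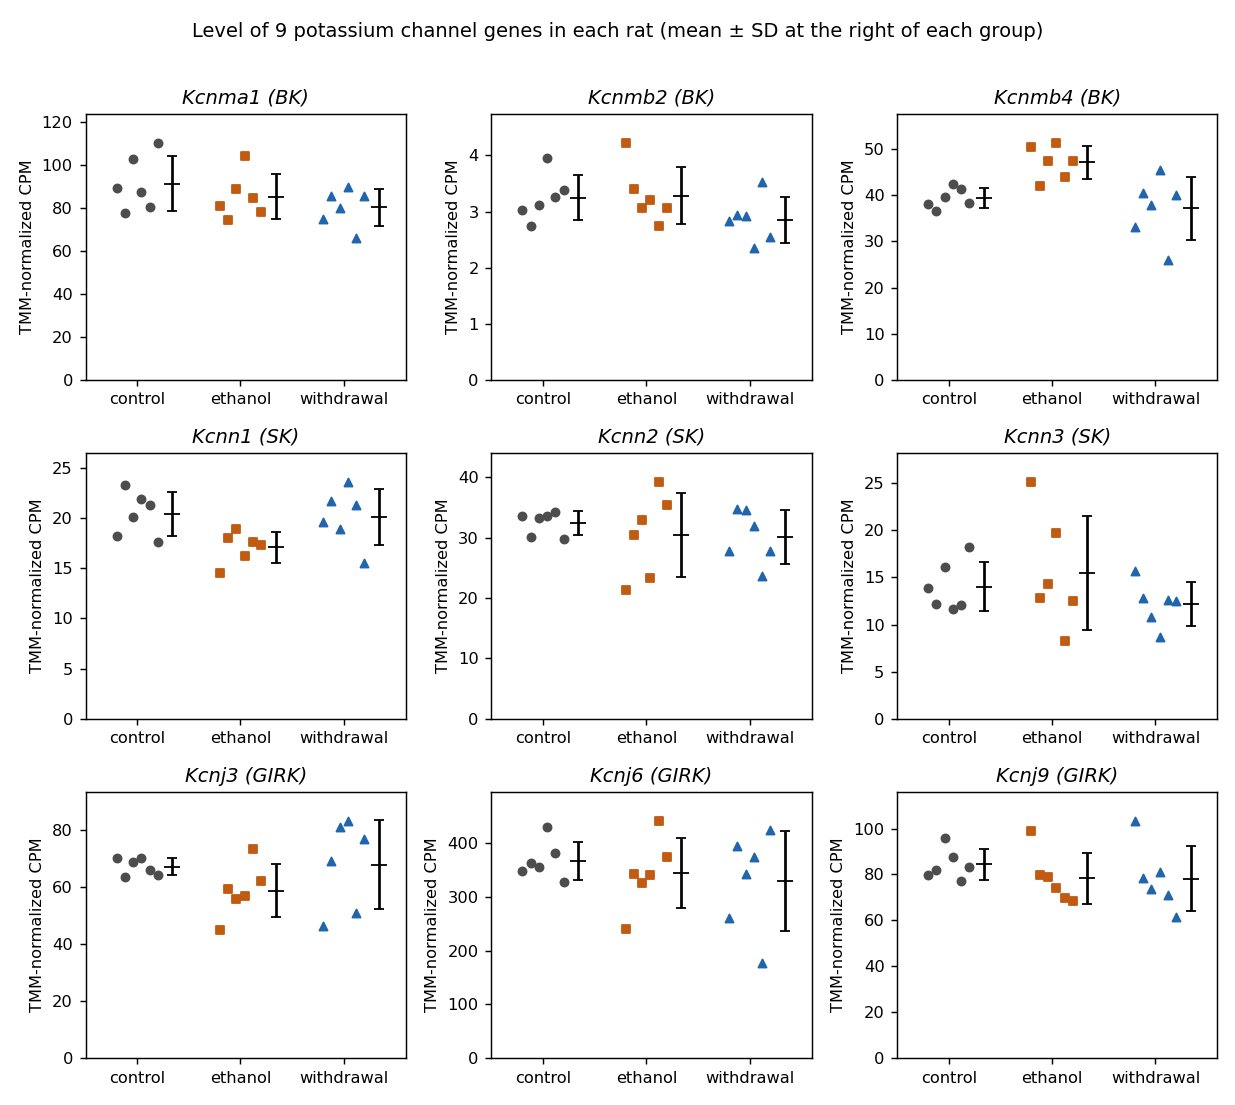
Level of each channel gene in CPM, with 1 point per rat, a symbol per group and the mean ± SD at the right of each group. In Kcnmb4, 5 of 6 ethanol rats are above all control rats, in Kcnn3 the ethanol rats run from 8.24 to 25.1 CPM, and in Kcnj6 withdrawal rat 5 is lowest at 177 CPM.

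Over the 9 genes, limma-voom called 0 between ethanol and control at q < 0.1, where 0.493% of all genes tested were called (0.336% higher and 0.157% lower). Between withdrawal and control it called 0 of 9, against 5.41% of all genes (2.85% higher and 2.55% lower), and between withdrawal and ethanol 0 of 9, against 2.72% (1.23% higher and 1.49% lower). The F test across the 3 groups called 0 of 9, against 5.6%. The quasi-likelihood test of edgeR called 0 in each comparison (0.538%, 5.77% and 2.98% of all genes), and DESeq2 called 0, 0 and 1, Kcnmb4 (2.65%, 9.1% and 6.59% of all genes). At an unadjusted limma-voom p under 0.05 there were 3 channel genes for ethanol against control (Kcnmb4, Kcnn1 and Kcnn3), 1 for withdrawal against control (Kcnn3) and 1 for withdrawal against ethanol (Kcnmb4), where 12.5%, 19.7% and 16.7% of all genes had such a p. By the exact permutation test these counts were 3 (Kcnmb4, Kcnn1 and Kcnj3), 0 and 1 (Kcnmb4), against 13.5%, 12.8% and 14.3% of all genes.

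The fitted log2 fold changes of the 9 genes lay between -0.26 and 0.20. Over all genes the median absolute value was 0.080 for ethanol against control, 0.090 for withdrawal against control and 0.094 for withdrawal against ethanol. In these comparisons 50.1%, 50.1% and 49.9% of all genes had a value above 0. The median over the 9 genes was -0.12 for ethanol against control, -0.11 for withdrawal against control and -0.03 for withdrawal against ethanol, while the median over all 17853 genes was near 0 in each. For ethanol against control 7 of the 9 values were below 0, with a range of -0.21 to 0.20. For withdrawal against control 8 of 9 were below 0, with a range of -0.20 to 0.03. The comparisons share the control or the ethanol rats, so that their values are not independent. The groups separated fully for 0 of the 9 genes in each comparison, and for 1.32%, 1.06% and 1.22% of all genes.

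**Figure D4:**
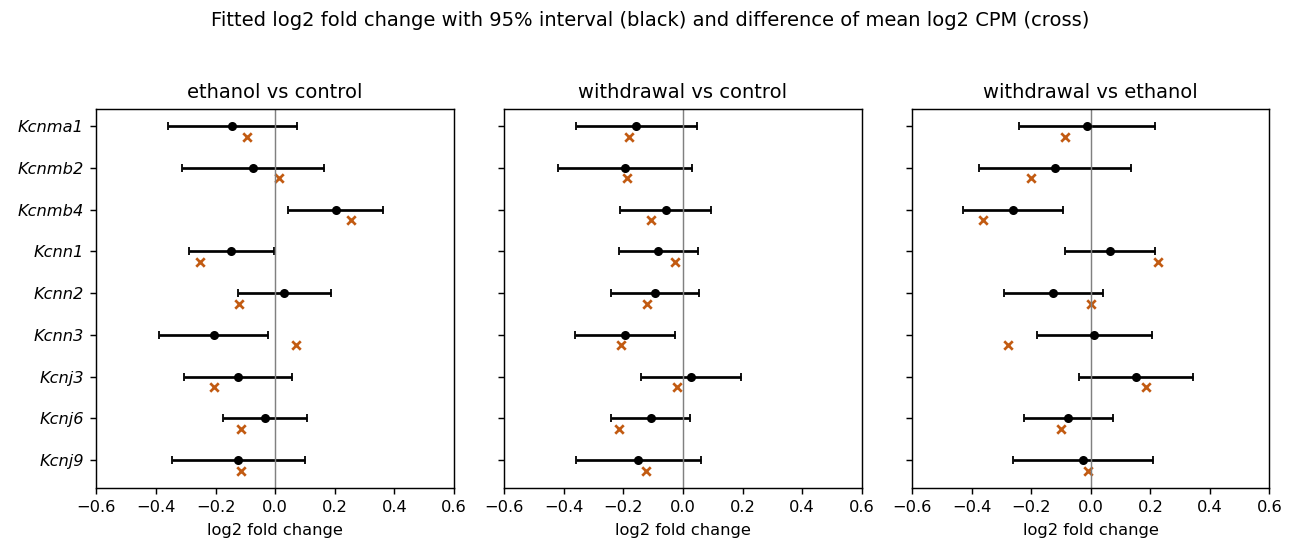
Log2 fold change of each channel gene in the 3 comparisons, with the limma-voom estimate and its 95% interval in black and the difference of mean log2 CPM without surrogate variables as a cross. Kcnmb4 has 0.20 for ethanol against control and -0.26 for withdrawal against ethanol, and the 2 estimates of Kcnn3 for ethanol against control, -0.21 and 0.070, lie on either side of 0.

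Other genes of the same channels and of their partners were taken from 6 lists. Of 54 genes, 50 were tested, and 0 passed q < 0.1 by limma-voom for ethanol against control (7 had an unadjusted p under 0.05, edgeR called 0, and DESeq2 called 2 and 2.65% of all genes), where 0.493% of all genes were called and 12.5% had such a p. For withdrawal against control 2 were higher and 0 lower, and for withdrawal against ethanol 0 were higher and 1 lower, counts that lie near the shares of all genes called, 5.41% and 2.72%. The genes that passed were Ppp2cb, Kcnt1 and Jph4, and no other subunit of the BK, SK or GIRK channels did. Of those subunits Lrrc55, a BK γ subunit, had 57.1 ± 18.8 CPM in control rats, while Kcnmb1 had 1.02, Kcnn4 0.618 and Kcnj5 2.52 CPM.

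Ppp2cb, a catalytic subunit of the protein phosphatase 2A, which is found in a complex with SK channels, was higher in withdrawal. It had 125 ± 3.72 CPM in control, 139 ± 6.59 CPM in ethanol and 139 ± 8.09 CPM in withdrawal rats (n = 6 each). Its log2 fold change was 0.17 for withdrawal against control (SE 0.0364, limma-voom q = 0.0267) and 0.14 for ethanol against control (SE 0.0387, limma-voom q = 0.148), with exact permutation p of 0.00649 and 0.00433. Without surrogate variables, where 0.23% of all genes were called for withdrawal against control, neither Ppp2cb nor Kcnt1 passed, although the differences of mean log2 CPM were 0.15 and 0.48.

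Kcnt1, a sodium-activated channel related to BK, averaged 60.9 ± 13.5 CPM in the control group and 90.1 ± 40.2 CPM at withdrawal, with a log2 fold change of 0.30 (SE 0.0866, limma-voom q = 0.0757). The highest values were 149 CPM in withdrawal rat 5 and 129 CPM in withdrawal rat 1, the groups overlapped, and the exact permutation p was 0.117. In ethanol rats it had 73.2 ± 18.8 CPM, with a log2 fold change of 0.31 against control (SE 0.0924, limma-voom q = 0.164) and of -0.01 for withdrawal against ethanol (SE 0.0963, limma-voom q = 0.977). Jph4, a junctophilin that holds the endoplasmic reticulum to the cell membrane, had 403 ± 67.4 CPM in ethanol and 346 ± 87.0 CPM in withdrawal rats. Its log2 fold change was -0.32 (SE 0.0870, limma-voom q = 0.0880), and the exact permutation p was 0.232. Withdrawal rats 5 and 1 had 232 and 249 CPM of Jph4, and the other withdrawal rats had 357 to 447 CPM. Jph4 was not called with 2 surrogate variables, with only the groups compared, with the replicate block or with the index set as a term. In the GIRK lists, 0 of 16 G protein and RGS genes (Gng7 among them) and 0 of 11 receptor genes passed in any comparison by limma-voom, where 0.493%, 5.41% and 2.72% of all genes did.

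The levels of several channel genes correlated with the summed RNA of marker lists. Of 117 correlations between a channel gene and a summed marker list over the 18 rats, 30 had q < 0.05 for r, and 22 had it for both r and rho. The 22 included pairs with glial lists, Kcnma1 with 5 microglia markers (r = 0.727, rho = 0.773) and Kcnmb2 with 6 astrocyte markers (r = -0.668, rho = -0.688), with permutation p of 0.00054 and 0.00232 for r and q of 0.00486 and 0.0129. For rho the permutation p were 0.00028 and 0.00226, with q of 0.00518 and 0.0189, and without the 2 rats farthest in the marker sum r was 0.675 and -0.744. Kcnj3 with the astrocyte markers had r = 0.611 (permutation p = 0.00729, q = 0.0322) and rho = 0.612 (permutation p = 0.00843, q = 0.047). Kcnn1 with the oligodendrocyte precursor markers had r = -0.665 (permutation p = 0.00299, q = 0.0159) and rho = -0.628 (permutation p = 0.00637, q = 0.0383). The astrocyte sum mixes markers that moved apart: for withdrawal against control 3 of 6 had fitted values above 0 (Gfap 0.54) and 3 below (Aldh1l1 -0.41). Kcnj6 followed the dentate gyrus markers, of which 4 of 5 were tested (Lct was below the minimum), with r = 0.914 (permutation p = 1e-05, the smallest that 100000 permutations can give, q = 0.000292) and rho = 0.868 (permutation p = 1e-05, q = 0.00117). Without withdrawal rats 5 and 1, r was 0.738, and within the groups it was 0.73 in control, 0.90 in ethanol and 0.99 in withdrawal rats. The dentate gyrus sum was 277 to 357 CPM in control, 269 to 355 CPM in ethanol and 167 to 332 CPM in withdrawal rats. The relation of Kcnj6 was not particular to this list. With the neuron markers r was 0.840 (permutation p = 1e-05, q = 0.000292), and 0.776 without withdrawal rat 5 and ethanol rat 5. With the CA1 and CA3 markers r was 0.823 and 0.747 (permutation p = 0.00035 and 0.00192, q = 0.00372 and 0.0118).

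Kcnn2 followed the CA1 markers, of which 4 of 5 were tested (Fibcd1 was below the minimum), with r = 0.881 (permutation p = 1e-05, q = 0.000292) and rho = 0.744 (permutation p = 0.00048, q = 0.00702). Without ethanol rat 1 and withdrawal rat 5, r was 0.766, and within the groups it was 0.52, 0.94 and 0.89 in control, ethanol and withdrawal rats. The CA1 sum was 421 to 597 CPM in control, 216 to 592 CPM in ethanol and 245 to 610 CPM in withdrawal rats. Kcnn3 went the other way, with r = -0.722 (permutation p = 0.00087, q = 0.00636) and rho = -0.767 (permutation p = 0.00031, q = 0.00518) for the same list, and r was -0.872 without those 2 rats and -0.82, -0.92 and -0.50 within the groups. These relations were not particular to the CA1 list. Kcnn2 had r = 0.848 with the neuron markers (permutation p = 2e-05, q = 0.000468), and 0.779 without withdrawal rat 5 and ethanol rat 5. With the dentate gyrus markers its r was 0.618 (permutation p = 0.00742, q = 0.0322). For Kcnn3 and the neuron markers r was -0.756 (permutation p = 0.00034, q = 0.00372).

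Kcnn3 followed the 6 thalamus markers, with r = 0.902 (permutation p = 1e-05, q = 0.000292) and rho = 0.759 (permutation p = 0.00058, q = 0.00754). Without ethanol rats 1 and 4, r was 0.796, and it was 0.82, 0.96 and 0.77 within control, ethanol and withdrawal rats. The thalamus sum was 246 to 703 CPM in control, 243 to 1325 CPM in ethanol and 217 to 522 CPM in withdrawal rats. Kcnj3 followed the 8 neuron markers with r = 0.816 (permutation p = 4e-05, q = 0.00078) and rho = 0.82 (permutation p = 2e-05, q = 0.00117). Without withdrawal rat 5 and ethanol rat 5, r was 0.829, and it was 0.35 in control, 0.92 in ethanol and 0.89 in withdrawal rats. The control rats were all in 1 index set and the ethanol rats all in another, so that r within each of these groups was also within a set, while the withdrawal rats were in 2 sets, of 2 and 4 rats. In the 2 withdrawal rats with the index set of the ethanol rats, Kcnn1 had 19.6 and 21.6 CPM, both above every ethanol rat, and Kcnj9 averaged 91.0 CPM, against 71.7 CPM in the other 4 withdrawal rats. The part of tissue composition in the group differences of these genes was not tested.

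**Figure D5:**
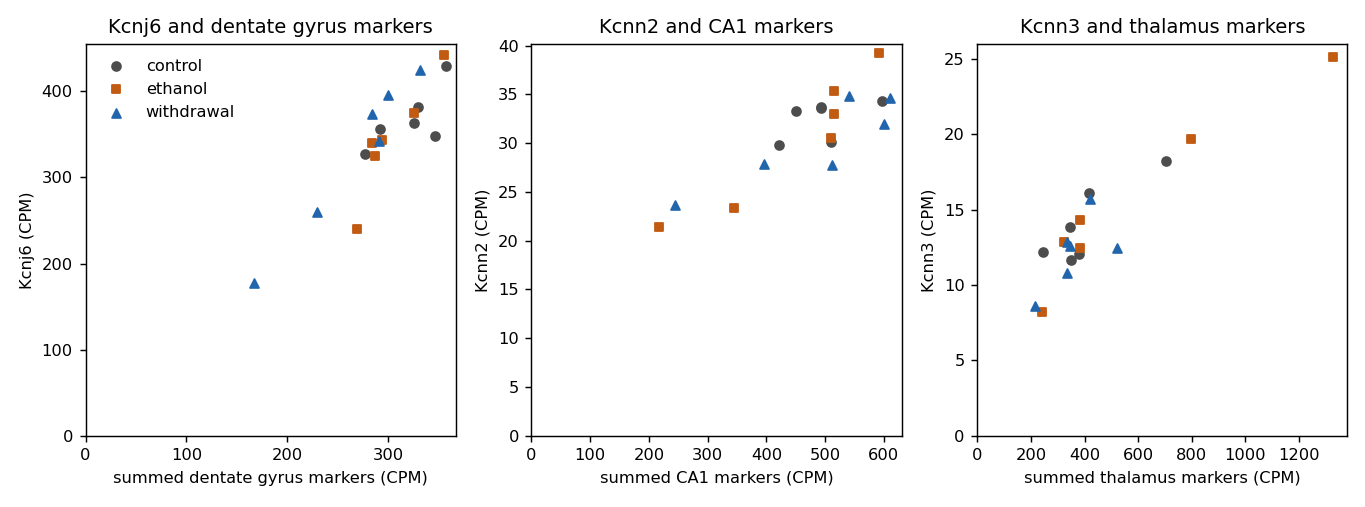
Level of Kcnj6, Kcnn2 and Kcnn3 in CPM against the summed CPM of dentate gyrus, CA1 and thalamus markers, with 1 point per rat and a symbol per group. Kcnj6 and Kcnn2 are lowest in the rats with the lowest sums, and the 3 highest Kcnn3 values are those of the 3 rats with a thalamus sum of 703 CPM or more.

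For each channel gene the genes with the most similar pattern over the 18 rats were found among 15242 genes with a mean of at least 1 CPM, by Pearson's r of log2 CPM. The rats of this measure share library and tissue composition, and the most similar of many genes is high by selection. For Kcnj6 these were Neto1, an auxiliary subunit of glutamate receptors, with r = 0.973, and Trim2, a ubiquitin ligase, with r = 0.972. For Kcnj3, Scn2a, a neuronal sodium channel, had r = 0.949. For Kcnn3 they were Cpne9 and Syt9, a copine and a synaptotagmin, with r = 0.949 and 0.932. For Kcnn2 they were Nrip1, a corepressor of nuclear receptors, and Sertm1, with r = 0.944 and 0.923.

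For Kcnmb4 the most similar genes were Gde1, a phosphodiesterase, with r = 0.912, and Gng7, a G protein γ subunit, with r = 0.906. Gng7 had 126 to 151 CPM in control, 153 to 236 CPM in ethanol and 76.4 to 160 CPM in withdrawal rats. These levels are a description, since Gng7 is named for its likeness to Kcnmb4 over the same rats. For Kcnn1 they were Nuak1, a kinase, and Tbr1, a transcription factor of cortical neurons, with r = 0.849 and 0.841. For Kcnmb2 they were Cmc1 and Trim37 with r = 0.889 and 0.865, for Kcnma1 the postsynaptic scaffold gene Lrrc7 with r = 0.791, and for Kcnj9 the secreted protein gene Nell1 with r = 0.750, each of the last 2 beside a gene with no symbol.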

How the data were processed

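The authors sequenced stranded, paired-end RNA libraries from dorsal hippocampus (RNA integrity number above 8 in all samples), aligned reads with STAR 2.5.2a to Rnor_6.0 with NCBI annotation release 106, counted them by strand with featureCounts 1.5.0, and deposited the counts, which are not normalized. Groups were taken from the labels, and nothing in them ties rats of different groups together. In 45 pairs of rats of a group no 2 libraries agreed within sampling noise, with a chi-square per degree of freedom of at least 5.44.

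Counts were normalized by TMM (edgeR 4.0.16), genes above 0.5 CPM in at least 1 rat were kept, and 3 surrogate variables (sva 3.50.0, log2 CPM with a prior count of 2) entered a limma-voom model of all 3 groups (limma 3.58.1, R 4.3.3). Surrogate variables are sources of variation estimated from the data. P-values were adjusted by Benjamini-Hochberg within each comparison to give q, with a threshold of 0.1 as in the study. For single genes all 924 splits of 2 groups were also enumerated in an exact permutation test (two-sided), and correlations by 100000 permutations. Fitted fold changes are adjusted for the surrogate variables, so that they can differ from the ratio of the group means. Other values were computed in Python 3.11.15 (scipy 1.17.1, numpy 2.4.6). Symbols came from a RefSeq table of assembly GRCr8, which matched 29322 identifiers, and exonic lengths and positions from the count files. The channel genes, partner lists and marker lists were chosen with earlier results of these data known. Named genes are the 9 channel genes, other subunits of these channels, listed partners with q < 0.1, and the 2 genes most similar to each channel gene, of which 1 is not reported here. Tested on simulated data for withdrawal against control (17575 genes), limma-voom recovered 13 of 50 genes changed by 1.25-fold, 32 of 50 changed by 1.5-fold and 45 of 50 changed by 2-fold, with 14 false calls. The simulation had a random hidden factor drawn independently of the groups, no index sets and no fold below 1.25. Its rates therefore need not hold for the real rats. Alternatives were other numbers of surrogate variables, edgeR's quasi-likelihood test, DESeq2 1.42.0, another scaling, other filters, a stricter threshold, only the groups compared, the replicate number as a block, the index set as a term, and leaving out each rat. Leaving out 2 sets of rats with unusual tissue markers was added after the data were seen.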

Additional observations from a re-analysis of the deposited data

Results flagged for a closer look

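Kcnj9 in ethanol rat 1 stood apart from the other ethanol rats. It had 99.1 CPM, against 68.2 to 79.6 CPM in the other 5, and the gap to the nearest of them was 0.631 of the range of the group, above the limit of 0.625 for 6 samples. Of 27 groups of 6 rats tested in this way over the 9 channel genes, 1 passed the limit, and chance alone passes about 1 in 20. The same rat had the highest summed thalamus markers, 1325 CPM, and the part of these in its Kcnj9 level was not tested.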

How the results depend on the processing

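The number of channel genes called was 1 in place of 0 for ethanol against control with 4 surrogate variables and without ethanol rat 1 and withdrawal rat 5, which called 1.24% and 1.57% of all genes. For withdrawal against ethanol it was 1 with no surrogate variables, with 4, with DESeq2, and with either set of rats with unusual markers left out, which called 3.48%, 5.02%, 6.59%, 3.77% and 3.3% of all genes. For the F test it was 2 with 4 surrogate variables, 1 with the replicate block and 1 without ethanol rat 1 and withdrawal rat 5 (9.04%, 4.08% and 7.24% of all genes called). Leaving out each rat gave 0 to 1, 0 to 0, 0 to 1 and 0 to 2 calls for ethanol against control, withdrawal against control, withdrawal against ethanol and the F test. The 1 called for ethanol against control came without ethanol rat 5 or withdrawal rat 5 (1.45% and 1.26% of all genes called), and that for withdrawal against ethanol without ethanol rat 5, withdrawal rat 4 or withdrawal rat 5 (10.1%, 4.07% and 3.81%). For the F test the same 3 rats gave 1, 2 and 1 (11.5%, 7.54% and 7.28%). Partner genes called were 2 with DESeq2 for ethanol against control. For withdrawal against control they were 0 with no surrogate variables and 1 with 2 of them, with no filter and at q < 0.05. For withdrawal against ethanol they were 3 with 4 surrogate variables and with DESeq2, and 0 with 2 surrogate variables, no filter, q < 0.05, only the groups compared, the replicate block or the index set as a term. Leaving out each rat gave 0 to 2, 0 to 3 and 0 to 3 partner genes. By the exact permutation test the counts were 1 for withdrawal against control (Kcnmb2) and 2 for withdrawal against ethanol (Kcnmb2 and Kcnmb4) without ethanol rat 1 and withdrawal rat 5 (14.5% and 11.6% of all genes), and 0 for withdrawal against ethanol without control rat 6 and ethanol rats 1 and 4 (9.7%). Leaving out each rat gave 2 to 3, 0 to 1 and 1 to 2 (10.1% to 19.9%, 9.97% to 15.4% and 11.1% to 19.1% of all genes).

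Of the log2 fold changes, 334 values under the alternatives that kept all rats or left out the 2 sets of rats had the sign and call of the main model, 7 (all Kcnmb4) passed q < 0.1 where the main model did not, and 19 changed sign. Without surrogate variables, ethanol against control gave 0.017 for Kcnmb2, -0.13 for Kcnn2 and 0.070 for Kcnn3, withdrawal against control gave -0.016 for Kcnj3, and withdrawal against ethanol gave 0.011 for Kcnn2 and -0.29 for Kcnn3. Fitting only the groups compared gave 0.057 for Kcnj6 (ethanol against control) and -0.023 for Kcnn3 (withdrawal against ethanol). With the index set as a term, withdrawal against ethanol gave 0.084 for Kcnn2, -0.056 for Kcnn3, -0.027 for Kcnj3 and 0.22 for Kcnj9. With 4 surrogate variables it gave 0.0087 for Kcnma1 and for Kcnj9. Without ethanol rat 1 and withdrawal rat 5, withdrawal against control gave 0.023 for Kcnmb4, and withdrawal against ethanol gave 0.057 for Kcnma1 and 0.025 for Kcnj9. Without control rat 6 and ethanol rats 1 and 4, the latter gave 0.0086 for Kcnma1 and 0.032 for Kcnj9. Leaving out each rat, sign changes came with ranges of -0.0011 to 0.066 for Kcnn2 and -0.077 to 0.0042 for Kcnj6 (ethanol against control), -0.12 to 0.0045 for Kcnmb4 and -0.030 to 0.11 for Kcnj3 (withdrawal against control), and -0.054 to 0.032 for Kcnma1, -0.12 to 0.14 for Kcnn3 and -0.095 to 0.14 for Kcnj9 (withdrawal against ethanol). The cause of these changes was not tested. Over all genes, 88, 965 and 486 were called in the 3 comparisons, against 50, 41 and 621 without surrogate variables, 71, 594 and 260 with 2, 221, 1362 and 896 with 4, 473, 1624 and 1176 with DESeq2, 9, 486 and 166 with no filter, 10, 370 and 112 at q < 0.05, 28, 1162 and 0 with only the groups compared, and 33, 941 and 1 with the replicate block. Leaving out each rat, they ranged from 0 (without control rat 4) to 258 (without ethanol rat 5), from 23 (without withdrawal rat 6) to 1911 (without withdrawal rat 2) and from 0 (without ethanol rat 2 or 3 or withdrawal rat 6) to 1800 (without ethanol rat 5), so the shares of all genes called are themselves unstable.

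Rats with the same replicate number did not deviate together, since r was over 0.1 in 4 of 18 pairs (range -0.325 to 0.383), so the block is given here only. With it, Kcnmb4 had q = 0.146 for ethanol against control and 0.119 for withdrawal against ethanol by limma-voom. Kcnmb2 had the fewest counts, 84 to 149 per rat, and the largest standard error of the 9 genes in each comparison (0.113, 0.107 and 0.121).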
